A study of Mus musculus with 8 samples.

Results

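The mRNAs of 10 genes of the endoplasmic reticulum (ER) unfolded protein response were followed in mouse embryonic fibroblasts (MEFs) at 3 doses of RHPS4, and of these Herpud1, at 10 µM, was the only member to pass the test for a change. The 10 genes, of 24460 in the count files, were Hspa5, Hsp90b1, Calr, Pdia4, Sdf2l1, Dnajb9, Herpud1, Edem1, Xbp1 and Atf6. They were chosen by name as chaperones, degradation factors and regulators of the ATF6 and XBP1 branches, so that a response of the ER can be set beside a response of the ATF4 branch alone. RHPS4 is a G-quadruplex ligand, a compound that binds 4-stranded structures of guanine-rich DNA or RNA. Wild type MEFs were cultured in high-glucose medium with pyruvate and serum and left without RHPS4 (0 µM, n = 3 libraries) or given it at 2 µM (n = 3) or 10 µM (n = 2). The strain and age of the embryos, the vehicle at 0 µM and the exposure time of these particular libraries are not given in the sources used here, nor do the labels say that the libraries of a dose came from separate cultures, so the p-values measure the spread between these libraries, which may be technical.

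The unfolded protein response is how a cell answers misfolded protein in the ER lumen. The membrane protein IRE1 (Ern1) cuts the Xbp1 mRNA so that it is spliced into a form that encodes an active transcription factor. ATF6 is itself a transcription factor held in the ER membrane, which is cleaved in the Golgi to release its active part. Both raise chaperones, folding enzymes and the ER-associated degradation (ERAD) machinery, largely through ER stress elements in the promoters. The third sensor, PERK (Eif2ak3), phosphorylates the translation factor eIF2α, which raises translation of ATF4, a step that other kinases can also take without ER stress. Counts per gene do not separate spliced from unspliced Xbp1 and do not show ATF6 cleavage or eIF2α phosphorylation.

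The ER stress elements of the members are shown because they tell which promoters carry the letters through which ATF6 and XBP1 are known to act. RefSeq promoters (GRCm38.p6, 250 bases before to 50 after the transcription start) were found for 9 of the 10 members, with Atf6 as the exception. The ERSE motif, CCAAT and CCACG with 9 bases of any kind between them, was searched on both strands and was held by 39 of 32851 promoters (0.119%), among them those of Hspa5, Calr and Hsp90b1. The shorter ERSE-II motif, ATTGG and CCACG with 1 base of any kind between them, was held by 12 promoters (0.0365%), among them that of Herpud1. No match of either motif overlapped the other. Each stretch below lies before the RefSeq start and reads 5′ to 3′ on the strand of its gene. The fixed bases of the motif are in capitals (reverse complemented where the match is on the other strand). By the GENCODE position used further below, from 34771970, the Hspa5 stretch lies inside the gene. The whole Dnajb9 window (chr12:44210019-44210318, minus strand) lies inside its GENCODE gene, chr12:44205559-44210326. For Dnajb9, bases before the GENCODE start were therefore not searched. The stretches are at chr2:34772005-34772063 on the plus strand (Hspa5), chr8:84847055-84847113 on the minus strand (Calr), chr8:94386357-94386407 on the plus strand (Herpud1) and chr10:86705513-86705676 on the minus strand (Hsp90b1).
Hspa5: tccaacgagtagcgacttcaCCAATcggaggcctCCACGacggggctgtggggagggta
Calr: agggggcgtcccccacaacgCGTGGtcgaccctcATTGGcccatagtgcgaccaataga
Herpud1: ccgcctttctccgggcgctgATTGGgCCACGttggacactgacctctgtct
Hsp90b1: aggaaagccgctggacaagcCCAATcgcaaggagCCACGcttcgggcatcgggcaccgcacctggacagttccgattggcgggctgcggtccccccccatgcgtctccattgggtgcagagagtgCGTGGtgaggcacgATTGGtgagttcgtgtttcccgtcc

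The match lay 65 to 47 bases before the start in Hspa5, 162 to 144 in Calr and 52 to 42 in Herpud1. Hsp90b1 had a match at 212 to 194 bases and another, on the opposite strand, at 107 to 89 bases. The XBP1 motif UPRE (TGACGTGG, held by 0.676% of promoters) was searched on both strands too and matched 0 members. A single form of the ATF4 motif CARE, TGATGNAAT (held by 0.965%), was searched likewise and also matched 0 members. Forms of CARE with another last base were not searched. All matches given here are of letters within 300 bases, and say nothing of binding in these cells.

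**Figure D1:**
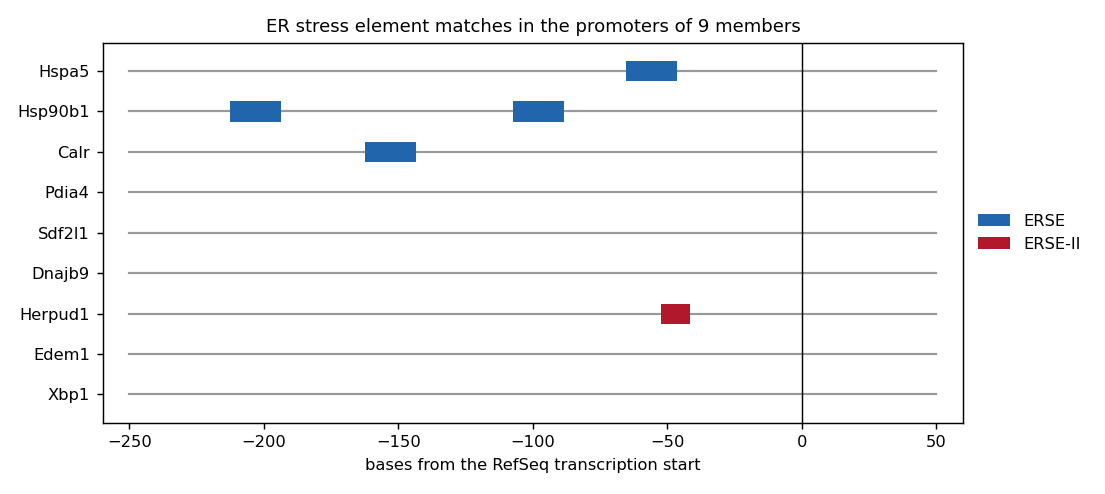
Positions of ERSE (blue) and ERSE-II (red) matches in the promoters of 9 members, in bases from the RefSeq transcription start at 0. Hsp90b1 holds ERSE at 2 places, Hspa5 and Calr hold it once each, and Herpud1 is the member with ERSE-II. Pdia4, Sdf2l1, Dnajb9, Edem1 and Xbp1 hold neither in the window searched, which for Dnajb9 lies inside the GENCODE gene.

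The libraries held from 10455965 to 26688121 counted fragments. Values below are normalised read counts (CPM, counts scaled to library size), with library sizes from edgeR's TMM method. The 14296 genes that passed edgeR's filter on low counts, with all 10 members among them, were tested with its quasi-likelihood test in a fit of all 8 libraries, and a gene was called where its Benjamini-Hochberg adjusted p was below 0.01 and its fold exceeded 1.5. The share of counts from mitochondrial DNA was 13.2% to 14.4% at 0 µM, 7.40% to 8.26% at 2 µM and 5.33% to 6.32% at 10 µM, and its part in the results was not tested. The calls of the members were made alike when the scaling used nuclear genes only. The summed level of 8 fibroblast markers was 12519 to 13022 CPM at 0 µM, 11242 to 11590 CPM at 2 µM and 10967 to 11550 CPM at 10 µM. The summed levels of 4 markers each reached at most 4.32 CPM for epithelial, 5.47 CPM for endothelial, 9.59 CPM for immune and 1.94 CPM for muscle cells, with 0 of these markers at 0 in every library. In bulk libraries a change in the number of cells that hold an mRNA and a change in its level per cell cannot be told apart.

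Per kilobase of exon, Calr, Hsp90b1, Hspa5 and Pdia4 stood well above the other 6 members in untreated MEFs, whereas the BiP partner Dnajb9 stood below both regulators. Calr had 474 ± 91.3 CPM per kb (SD, n = 3), Hsp90b1 had 354 ± 13.8 and Hspa5 had 209 ± 18.7. Pdia4 followed with 117 ± 11.8 CPM per kb. The level of Herpud1 was 33.5 ± 1.35 CPM per kb and that of Xbp1 was 26.0 ± 2.16. The lowest levels per kb were those of Edem1 (18.9 ± 1.26), Sdf2l1 (17.5 ± 0.674), Atf6 (8.26 ± 0.0613) and Dnajb9 (3.56 ± 0.188). Among neighbours in this order only Edem1 and Sdf2l1 overlapped between libraries, and the order was the same with the longest transcript as the length.

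The comparison of 2 µM with 0 µM asks what the low dose does. Of the 10 members 0 were called, where 0.497% of all tested genes were called (0.748% at any fold). DESeq2 also called 0 members, and 2 members, Xbp1 and Dnajb9, had an unadjusted p under 0.05 in edgeR, a share near the 21.3% of all tested genes that had one. The median log2 fold change of the members was −0.04, beside −0.01 over all tested genes. In 4 of 10 members the libraries of the groups did not overlap, with Atf6 higher and Hsp90b1, Xbp1 and Dnajb9 lower at 2 µM, beside 25.7% of all tested genes.

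The comparison of 10 µM with 0 µM asks the same of the high dose. Of the 10 members 1, Herpud1, was called and rose, where 3.09% of all tested genes were called and 1.95% were called higher. At any fold Atf6 passed too, making 2 of 10, beside 5.23% of all tested genes. The median log2 fold change of the members was −0.00, beside 0.02 over all tested genes. The groups did not overlap in 6 of 10 members, 3 of them higher (Atf6, Herpud1 and Edem1) and 3 lower (Hsp90b1, Dnajb9 and Sdf2l1) at 10 µM, beside 42.9% of all tested genes.

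Between the doses, at 10 µM against 2 µM, 1 member was called, again Herpud1, where 5.51% of all tested genes were called and 3.92% were called higher. Atf6 passed at any fold only, making 2 of 10, beside 10.8% of all tested genes. The median log2 fold change was 0.11 over the members and 0.03 over all tested genes. The groups did not overlap in 6 of 10 members (Xbp1, Atf6, Dnajb9, Herpud1 and Edem1 higher, Sdf2l1 lower), beside 51.8% of all tested genes. The 3 comparisons share libraries, so they are not independent of each other.

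**Figure D2:**
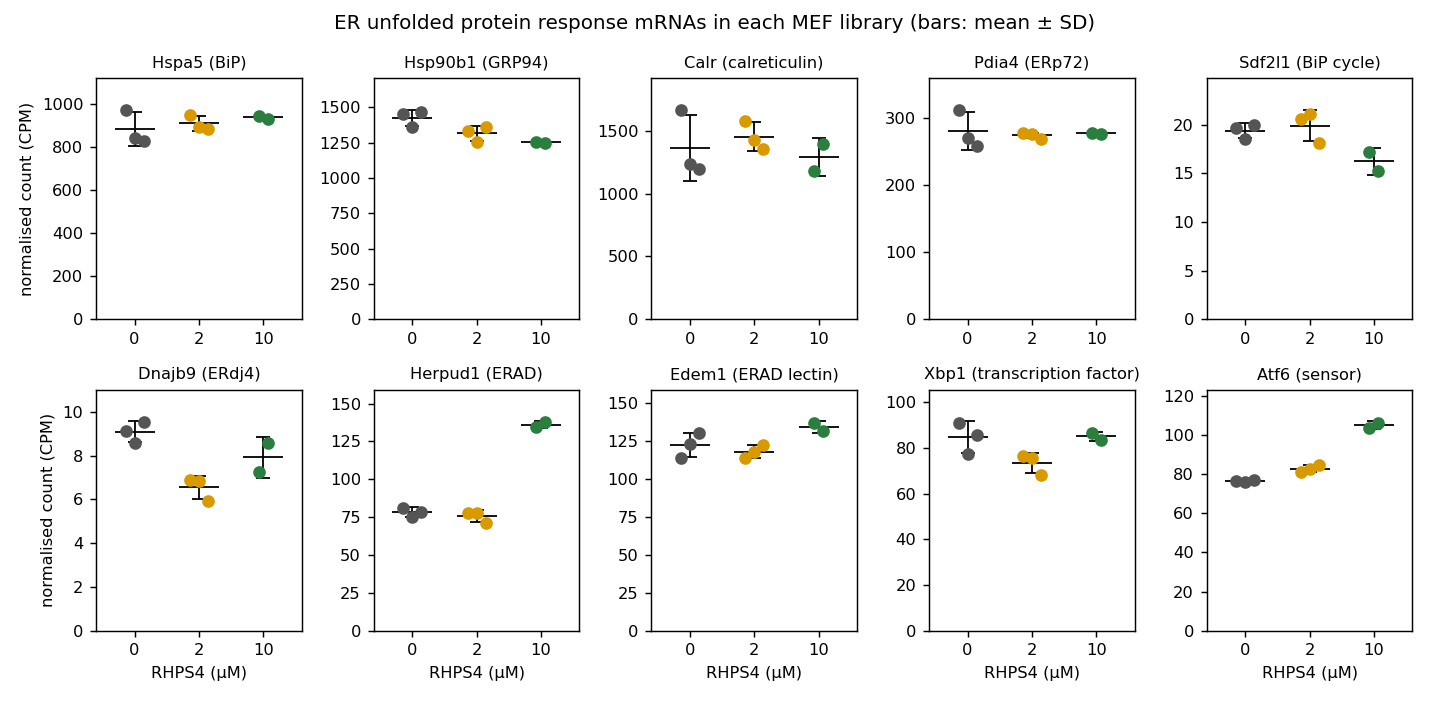
Normalised read count (CPM, linear axes from 0) of each member in every library at 0 µM (n = 3), 2 µM (n = 3) and 10 µM RHPS4 (n = 2); points are libraries, the long bar is the mean and the short bars are ± SD. Herpud1 stands at 134 and 138 CPM at 10 µM against 70.9 to 81.3 CPM in the other 6 libraries, and Atf6 at 103 and 106 CPM against 75.8 to 84.3 CPM, while Hspa5 spans 831 to 974 CPM over all 8 libraries.

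Hspa5 (chr2:34771970-34777547, plus strand, GRCm38) encodes BiP, the HSP70 of the ER lumen and the reference readout of the response. Its libraries had 974, 845 and 831 CPM at 0 µM, 952, 896 and 884 CPM at 2 µM, and 945 and 933 CPM at 10 µM. The groups overlapped, and the highest value was that of an untreated library. Against 0 µM, the difference was 3.15% at 2 µM (95% interval −8.61% to 16.4%, adjusted p = 0.793 in edgeR) and 6.36% at 10 µM (−7.07% to 21.7%, adjusted p = 0.544). Each library held at least 9386 counts of Hspa5.

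Hsp90b1 (chr10:86690209-86705509, minus strand) encodes GRP94, the HSP90 of the ER. It had 1452, 1362 and 1465 CPM at 0 µM, 1332, 1253 and 1360 CPM at 2 µM, and 1255 and 1247.5 CPM at 10 µM. Both treated groups lay below the untreated libraries, the 2 µM group by a margin of a few CPM. The log2 fold change was −0.12 at 2 µM (95% interval −0.28 to 0.04, adjusted p = 0.373 in edgeR) and −0.19 at 10 µM (−0.37 to −0.01, adjusted p = 0.147), and with library totals alone as the scaling the latter was 0.029. Of its exon bases 15.7% are shared with the annotations of 1810014B01Rik, Gm15344 and Gm25745, so part of its counts could be split differently.

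Calr (chr8:84841850-84846934, minus strand) encodes calreticulin, the soluble lectin chaperone that holds new glycoproteins and stores calcium. Its untreated libraries were the most uneven, at 1668, 1236 and 1192.5 CPM. The treated libraries had 1581, 1425 and 1353 CPM at 2 µM, and 1184 and 1397 CPM at 10 µM. All groups overlapped. Against 0 µM, the log2 difference was 0.09 at 2 µM (95% interval −0.19 to 0.37, adjusted p = 0.733 in edgeR) and −0.08 at 10 µM (−0.39 to 0.23, adjusted p = 0.748), the widest intervals of any member at both doses. The first untreated library had the highest value of all 8 libraries in Calr, Hspa5, Pdia4 and Xbp1.

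Pdia4 (chr6:47796141-47813430, minus strand) encodes ERp72, a disulfide isomerase of the ER. It had 312, 270 and 258 CPM at 0 µM, 277, 276 and 269 CPM at 2 µM, and 278 and 276 CPM at 10 µM. The treated libraries all lay within the untreated range. At 10 µM the difference from 0 µM was −1.03% (95% interval −13.3% to 12.9%, adjusted p = 0.931 in edgeR).

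Sdf2l1 (chr16:17130138-17132383, minus strand) encodes an ER protein that works with BiP and its J-proteins. It had 19.6, 18.5 and 19.97 CPM at 0 µM, 20.5, 21.1 and 18.1 CPM at 2 µM, and 17.2 and 15.3 CPM at 10 µM. The 10 µM libraries were the lowest, with no overlap with either other group. The log2 fold change was −0.25 against 0 µM (SE 0.107, adjusted p = 0.144 in edgeR) and −0.29 against 2 µM (SE 0.108, adjusted p = 0.0777), so neither passed.

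Dnajb9 (chr12:44205559-44210326, minus strand) encodes ERdj4, a J-protein co-chaperone of BiP that is known as an XBP1 target. It was the scarcest member, with 9.13, 8.57 and 9.53 CPM at 0 µM, 6.88, 6.85 and 5.94 CPM at 2 µM, and 7.27 and 8.56 CPM at 10 µM. The untreated libraries were the highest and the 2 µM libraries the lowest, and the second 10 µM library lay just under the lowest untreated value. The log2 fold change was −0.48 at 2 µM (SE 0.122, adjusted p = 0.0518 in edgeR), which misses the threshold, and −0.20 at 10 µM (SE 0.131, adjusted p = 0.334). Its lowest library held 78 counts.

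Herpud1 (chr8:94386438-94395377, plus strand) encodes an ER membrane protein of the ERAD complex around the ubiquitin ligase HRD1. Its libraries had 81.3, 74.98 and 78.6 CPM at 0 µM and 77.9, 77.7 and 70.9 CPM at 2 µM. At 10 µM they had 134 and 138 CPM, above all 6 others, while the other doses overlapped. Herpud1 rose 1.74-fold at 10 µM against 0 µM, a log2 fold change of 0.80 (SE 0.0756, 95% interval 0.63 to 0.96, adjusted p = 6.42e-05 in edgeR). Against 2 µM it rose 1.80-fold, by 0.85 (SE 0.0759, adjusted p = 3.13e-05). At 2 µM against 0 µM the value was −0.05 (95% interval −0.20 to 0.10, adjusted p = 0.717). Herpud1, the member with the ERSE-II letters shown above, is known as a target of ATF6 and XBP1 and also of ATF4, and which of them acted here was not tested.

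Edem1 (chr6:108828641-108859356, plus strand) encodes a lectin-like protein that hands misfolded glycoproteins to ERAD and is known as an XBP1 target. It had 114, 122.8 and 130 CPM at 0 µM, 114, 118 and 122 CPM at 2 µM, and 137 and 131 CPM at 10 µM. The 10 µM libraries were the highest, the lower of them by about 1 CPM over an untreated library. The log2 fold change was 0.13 at 10 µM against 0 µM (95% interval −0.04 to 0.30, adjusted p = 0.303 in edgeR) and 0.18 against 2 µM (adjusted p = 0.116).

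Xbp1 (chr11:5520659-5525893, plus strand) encodes the transcription factor that IRE1 switches on by splicing. Its libraries had 91.0, 77.1 and 85.4 CPM at 0 µM, 76.5, 75.3 and 68.1 CPM at 2 µM, and 86.5 and 83.5 CPM at 10 µM. The 2 µM libraries were the lowest, and the 10 µM libraries lay within the untreated range. Its log2 fold change was −0.20 at 2 µM (SE 0.0804, adjusted p = 0.176 in edgeR) and 0.01 at 10 µM (SE 0.0891, 95% interval −0.18 to 0.21, adjusted p = 0.951).

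Atf6 (chr1:170704674-170867771, minus strand) encodes the membrane-held transcription factor itself. It had 76.2, 75.8 and 76.9 CPM at 0 µM, 80.9, 82.7 and 84.3 CPM at 2 µM, and 103 and 106 CPM at 10 µM. The 3 doses did not overlap, in the order of dose. Its log2 fold change was 0.12 at 2 µM (SE 0.0621, adjusted p = 0.306 in edgeR) and 0.46 at 10 µM (SE 0.0682, 95% interval 0.31 to 0.61, adjusted p = 0.00156), with 0.34 between the doses (SE 0.0685, adjusted p = 0.00514). At 1.37-fold, the 10 µM value passed the adjusted p but not the minimum fold change, and with library totals alone as the scaling it was 0.67 and was called. That scaling moved the median of all tested genes at 10 µM to 0.23 and that of the members to 0.22. Over all alternatives the adjusted p of Atf6 at 10 µM against 0 µM ran from 7.87e-05 to 0.0308, highest without the second 10 µM library. Between the doses it ran from 0.000656 to 0.0712, again highest without that library, and was 0.0144 with DESeq2, so that passing at any fold depends on these choices in both comparisons.

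**Figure D3:**
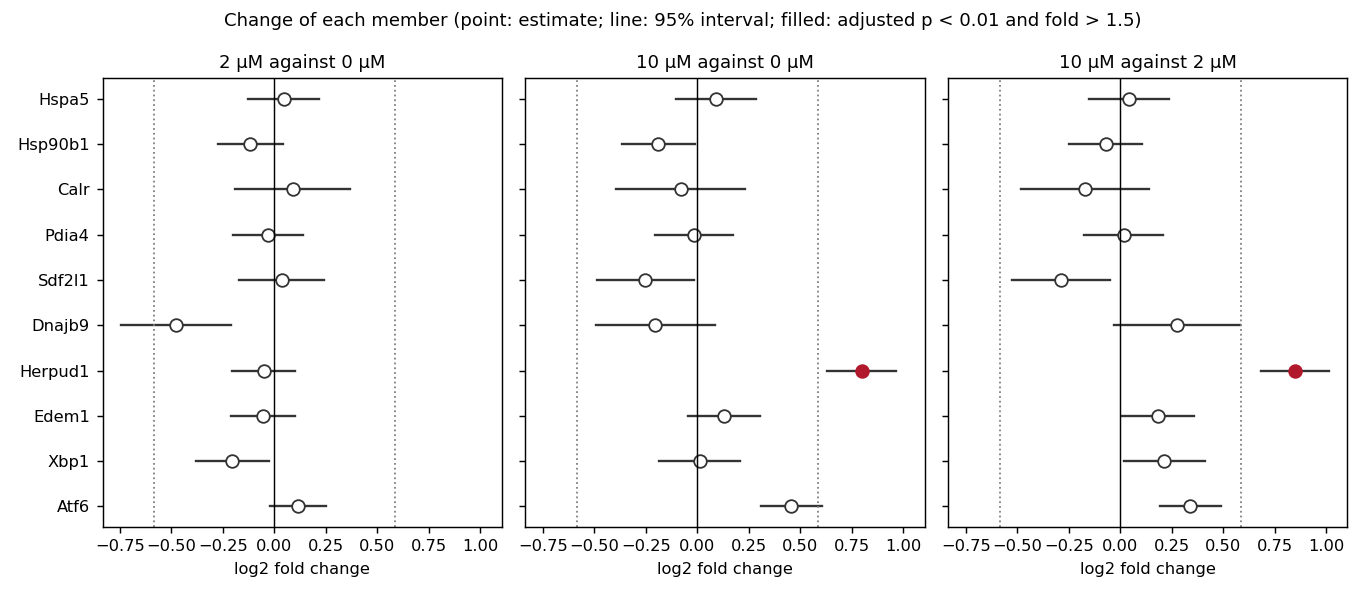
Log2 fold change of each member in the 3 comparisons, with the 95% interval as a line, the dotted lines at a fold change of 1.5 and a filled point where the gene was called. Herpud1 is the filled point at 0.80 and 0.85, Atf6 lies at 0.46 and 0.34 inside the dotted line, and the intervals of Hspa5, Calr and Pdia4 span 0 in each comparison.

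The members also differed in their course over the libraries. By the root mean square difference of log2 CPM, each gene centred on its mean over the 8 libraries, Pdia4 was the member nearest to Hspa5 (0.0497, at rank 66 of 8965 genes with at least 10 CPM). Herpud1 was the farthest (0.334, at rank 8278), and Dnajb9, which lies under that level, came next (0.246). The genes outside the list with the course most like that of Hspa5 were Tox4 (0.0204), Nrbp1 (0.0266), Sike1 (0.0292), Hdhd2 (0.0332) and Alg1 (0.0333). Such a flat course is shared by many genes, and the points share libraries and depth.

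Of 8 other sensors and activators of the response, 0 were called in any of the 3 comparisons by edgeR or DESeq2, with a median log2 fold change of −0.12 at 2 µM and 0.03 at 10 µM against 0 µM. An unadjusted p under 0.05 was had by 2 of them at 2 µM against 0 µM, beside 21.3% of all tested genes. At 10 µM it was had by 0 against 0 µM (beside 29.4%) and by 1 against 2 µM (beside 36.5%). Ern1, which encodes IRE1, had 21.6 ± 4.13 CPM at 0 µM (SD, n = 3) and 23.2 ± 1.94 CPM at 10 µM (SD, n = 2), a log2 fold change of 0.08 (adjusted p = 0.741 in edgeR). Eif2ak3, which encodes PERK, had 27.9, 30.4 and 34.5 CPM at 0 µM, 22.9, 24.8 and 23.5 CPM at 2 µM, and 29.7 and 29.5 CPM at 10 µM. Its 2 µM libraries lay below all others, with a log2 fold change of −0.39 (SE 0.0925, adjusted p = 0.0403) that misses the threshold. Atf6b, the paralogue of Atf6, had a value of 0.07 at 10 µM (adjusted p = 0.792).

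Among 16 other ER chaperones and folding enzymes, 1 fell at 2 µM against 0 µM and 0 were called at 10 µM against 0 or 2 µM by edgeR with TMM or by DESeq2. At 10 µM against 0 µM 12 of the 16 had a lower mean, with a median log2 fold change of −0.13, but 6 of 16 and 0.08 with library totals alone as the scaling. An unadjusted p under 0.05 was reached there by 6 of the 16, beside 29.4% of all tested genes. With library totals alone 1 gene was called higher at 10 µM against 0 µM. A different gene, Ero1l, was then called higher against 2 µM (0.66, adjusted p = 0.00204 in edgeR). Ero1l, the oxidase that recharges disulfide isomerases, was also the gene that fell at 2 µM, and was named after its values were seen. It had 140, 159 and 184 CPM at 0 µM, 91.1, 98.2 and 101 CPM at 2 µM, and 148 and 130 CPM at 10 µM. The 2 µM libraries lay below all others, and Ero1l fell by 0.74 on the log2 scale (SE 0.0999, adjusted p = 0.00316 in edgeR), a call that was lost when any of 5 libraries, all at 0 or 2 µM but the first at 0 µM, was left out (adjusted p 0.0137 to 0.0316).

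Dnajc3, Dnajb11, Manf and Creld2 had their lowest libraries at 10 µM. Dnajc3, a J-protein known as p58IPK, had 206, 186 and 194 CPM at 0 µM and 154 and 163 CPM at 10 µM, without overlap, a log2 fold change of −0.30 (SE 0.0746, adjusted p = 0.0209 in edgeR). Dnajb11, the J-protein ERdj3, had a value of −0.37 (adjusted p = 0.0555), and the secreted ER stress proteins Manf and Creld2 had −0.40 (adjusted p = 0.0885) and −0.23 (adjusted p = 0.0996). Hyou1, the nucleotide exchange factor GRP170, had −0.11 (adjusted p = 0.442), and the disulfide isomerase Pdia6 had −0.16 (adjusted p = 0.287). None of these passed the test against 0 µM or 2 µM. Against 2 µM the 10 µM values were −0.37 for Dnajc3 (adjusted p = 0.00524 in edgeR) and −0.47 for Dnajb11 (0.0145). Those of Manf and Creld2 were −0.49 (0.0289) and −0.30 (0.0257). Without the third 2 µM library Manf was called there, at −0.64 (adjusted p = 0.00739 in edgeR). In that comparison 12 of the 16 had a lower and 4 a higher mean. At 10 µM against 0 µM 4 of the 16 had a higher mean, the highest at 0.40 on the log2 scale. The groups did not overlap in 7 of the 16, 1 of them higher and 6 lower, beside 42.9% of all tested genes. Within this list 11 promoters were matched, of which those of Canx, Creld2, Dnajc3 and Pdia6 held ERSE and that of Dnajb11 held ERSE-II. A relation between these letters and the changes was not tested.

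Of 20 other ERAD and translocation genes 19 were tested and 0 were called in any comparison by edgeR with TMM or by DESeq2, with a median of 0.02 at 10 µM against 0 µM, where 7 had an unadjusted p under 0.05, beside 29.4% of all tested genes. With library totals alone as the scaling 1 of them, Sel1l, was called higher at 10 µM against 2 µM. Sel1l and Syvn1 had values of opposite sign at 10 µM. Sel1l, the adaptor of HRD1, had 92.3, 91.9 and 95.5 CPM at 0 µM, 82.8, 83.4 and 91.7 CPM at 2 µM, and 114 and 121 CPM at 10 µM. Its 10 µM libraries were the highest, with a log2 fold change of 0.33 against 0 µM (SE 0.0758, adjusted p = 0.0148 in edgeR) and 0.45 against 2 µM (adjusted p = 0.00197), neither of which met both thresholds. Syvn1, which encodes HRD1 itself, had 36.1, 39.3 and 41.4 CPM at 0 µM, 32.8, 33.3 and 33.5 CPM at 2 µM, and 30.3 and 27.6 CPM at 10 µM. Here the untreated libraries were the highest and the 10 µM libraries the lowest, with a log2 fold change of −0.43 (SE 0.091, adjusted p = 0.0104), just short of the threshold. Derl1 also had its highest libraries at 10 µM, with 96.7, 91.3 and 93.4 CPM at 0 µM and 119 and 121 CPM at 10 µM. At 10 µM against 0 µM the groups did not overlap in 8 of the 19, 4 higher and 4 lower. Over all tested genes that share was 42.9%. Derl3, a channel component often used as a marker of the response, had from 1 to 8 counts per library and was not tested.

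The targets of the ATF4 branch were set beside these. Of 19 PERK and ATF4 targets, a list chosen with earlier results of these data known, 0 were called at 2 µM by edgeR. There 10 had an unadjusted p under 0.05, beside 21.3% of all tested genes, and DESeq2 called 1, lower. At 10 µM 14 rose against 0 µM and 13 against 2 µM, where 1.95% and 3.92% of all tested genes were called higher. The median log2 fold changes were −0.02 at 2 µM and 1.25 at 10 µM against 0 µM, and 1.39 at 10 µM against 2 µM. Ddit3, which encodes the transcription factor CHOP, had 20.8, 22.6 and 20.8 CPM at 0 µM, 19.5, 16.4 and 13.4 CPM at 2 µM, and 57.5 and 49.4 CPM at 10 µM. The 10 µM libraries lay above all others, and Ddit3 rose by 1.32 (SE 0.13, adjusted p = 8.49e-05 in edgeR). Trib3, a pseudokinase induced by CHOP and ATF4, rose by 2.495 (adjusted p = 2.82e-05), and Chac1, which degrades glutathione, by 2.05 (adjusted p = 4.64e-07). Asns, the asparagine synthetase, rose by 1.16 (adjusted p = 9.71e-06), and Slc7a11, the cystine transporter with the smallest p of the list, by 1.80 (adjusted p = 4.22e-07).

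Ppp1r15a, which encodes the eIF2α phosphatase subunit GADD34, rose by 0.84 (SE 0.13, adjusted p = 0.00196 in edgeR), from 13.9 ± 0.431 CPM (SD, n = 3) to 24.8 ± 3.76 CPM (SD, n = 2). Without the second 0 µM library its adjusted p was 0.015, and without the first 10 µM library it was 0.0268. Atf4 itself had 343, 285 and 280 CPM at 0 µM, 363, 334 and 340 CPM at 2 µM, and 450 and 439 CPM at 10 µM. Its 10 µM libraries were the highest, with a log2 fold change of 0.56 (SE 0.0938, adjusted p = 0.00326) that misses the minimum fold. Atf4 was called with library totals alone as the scaling (0.78, adjusted p = 0.000154 in edgeR). It was also called without the first 0 µM library (0.63, adjusted p = 0.000197 in edgeR). The promoters of 17 of these 19 genes were matched, and 0 held ERSE or ERSE-II while 1, that of Nupr1, held the form of CARE searched. The difference between this list and the ER members is given by these counts and medians, and no test between lists was made.

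**Figure D4:**
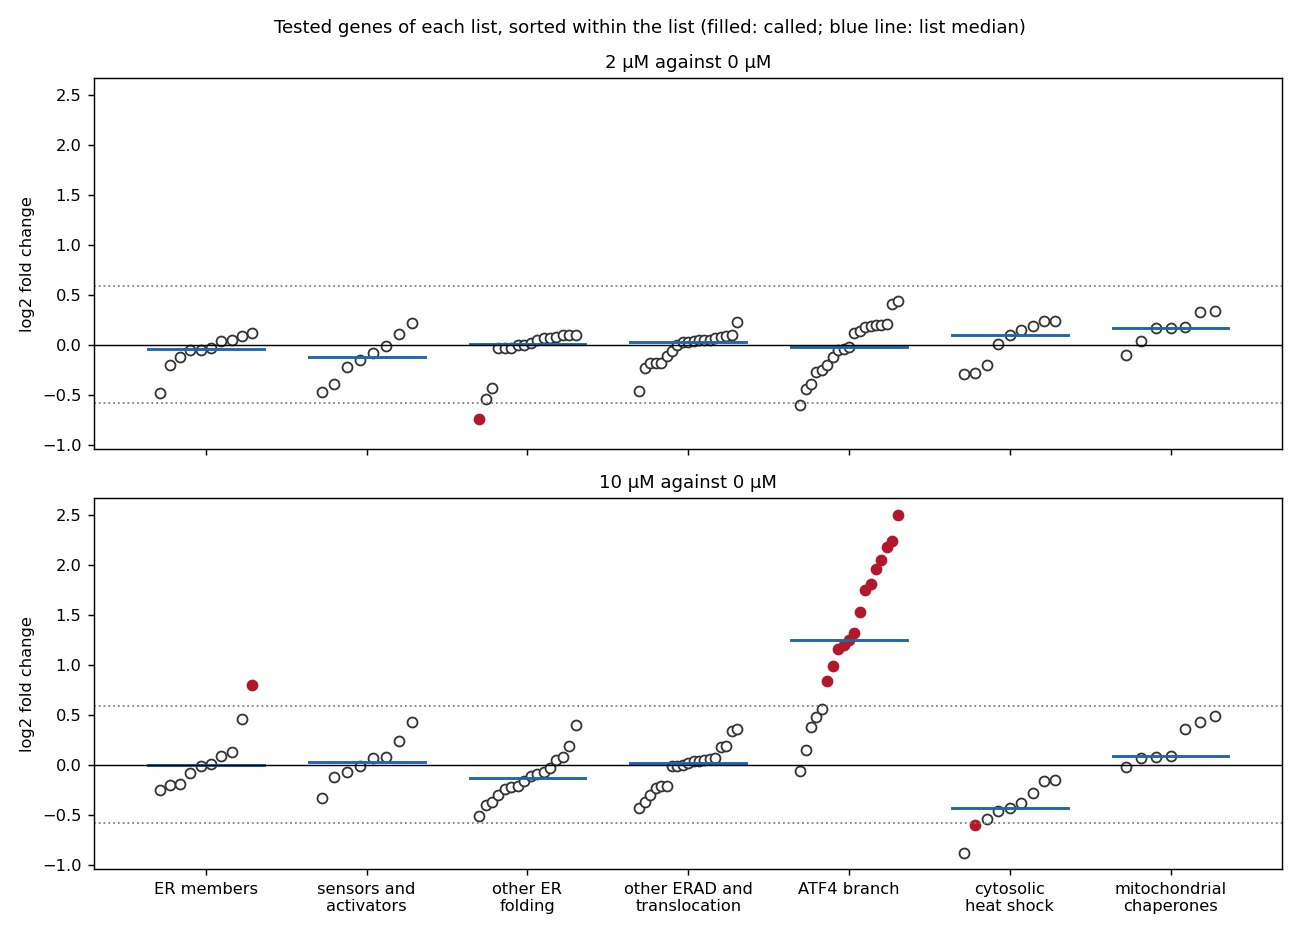
Log2 fold change of every tested gene in 7 lists, sorted within each list, at 2 µM (upper) and 10 µM (lower) against 0 µM; filled points are called genes, blue lines list medians and dotted lines a fold change of 1.5. At 10 µM the ATF4 branch has its median at 1.25 with 14 filled points, whereas the ER members have theirs at −0.00 with Herpud1 as the filled point.

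Other readouts of protein stress were set beside these. IRE1 also cuts mRNAs other than Xbp1. Of 6 mRNAs known as such substrates 1 was called lower at 10 µM against 0 µM, where 3.09% of all tested genes were called. This gene was Pdgfrb, the receptor of platelet-derived growth factor. It had 234, 233 and 238 CPM at 0 µM, 184, 181 and 188 CPM at 2 µM, and 154 and 155 CPM at 10 µM. The doses did not overlap, and at 10 µM Pdgfrb fell by 0.60 on the log2 scale (SE 0.0684, adjusted p = 0.000248 in edgeR), while with library totals alone as the scaling the value was −0.39 and was not called. Bloc1s1, the most used marker of this decay, had a value of −0.05 (95% interval −0.33 to 0.22, adjusted p = 0.807). The median of the 6 at 10 µM against 0 µM was −0.08, with 4 lower and 2 higher means. There 2 had an unadjusted p under 0.05, beside 29.4% of all tested genes. The groups did not overlap in 3 of the 6, all lower, beside 42.9% of all tested genes.

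Of 10 cytosolic heat shock genes 9 were tested. An unadjusted p under 0.05 was had by 2 at 2 µM, beside 21.3% of all tested genes. At 10 µM it was had by 6 against 0 µM (beside 29.4%) and by 7 against 2 µM (beside 36.5%). By edgeR or DESeq2 0 were called at 2 µM, and 1 fell at 10 µM against 0 µM. There all 9 had a lower mean, with a median of −0.43, but 7 of 9 and −0.21 with 0 called when library totals alone were the scaling. The gene that fell was Bag3, a cochaperone of HSP70, with 53.2, 56.6 and 61.3 CPM at 0 µM, 47.2, 44.3 and 49.0 CPM at 2 µM, and 42.3 and 33.3 CPM at 10 µM. The doses did not overlap, and it fell by 0.60 on the log2 scale (SE 0.11, adjusted p = 0.00516 in edgeR), a call that was lost without the second or the third 0 µM library, the second 2 µM library or the second 10 µM library, the last of which gave −0.47 with an adjusted p of 0.0543, and when only the groups compared were fitted (adjusted p = 0.021). Against 2 µM 2 genes fell at 10 µM, Hspa8 by 0.70 and Dnaja1 by 0.73, both named after their values were seen. The count was 0 with library totals alone and without the first 2 µM, the second 2 µM or the second 10 µM library, and 4 without the first 0 µM library. Hspa8 lost its call without the first 10 µM library too. Of 7 mitochondrial chaperones and proteases 0 were called in any comparison by edgeR with TMM or by DESeq2. At 10 µM against 0 µM 3 had an unadjusted p under 0.05, beside 29.4% of all tested genes. The medians were 0.17 at 2 µM and 0.08 at 10 µM against 0 µM. With library totals alone the latter median was 0.30, and 2 were called higher at 10 µM against 0 µM and 1 against 2 µM.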

How the data were processed

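The authors made strand-specific libraries from total RNA after depleting nuclear rRNA, sequenced them as 75 bp paired reads, and trimmed them with Trim Galore and Cutadapt. They aligned the reads to mm10 with STAR (2.5.2a in the submitters' processing notes) and deposited raw counts of uniquely mapped fragments per gene from featureCounts, whole numbers without normalization. The gene annotation and the strand setting of the counting are not given in the sources used here. Counts went into edgeR 4.0.16 under R 4.3.3 (TMM, filterByExpr, glmQLFit, glmQLFTest), with the dose as the only factor over 8 libraries. The thresholds are those of the study's methods, which used DESeq2. The SE is the log2 fold change divided by the square root of F. A floor of 3 counts is 0.119 to 0.311 CPM, which covers counting error only. Chi-square per degree of freedom was at least 3.23 between libraries of a dose, so their spread exceeded counting error. Each library was counted as a replicate, and this value cannot tell separate cultures from technical repeats. Gene positions and exon lengths came from GENCODE for GRCm38, the assembly of mm10.

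The members and lists were chosen with earlier results of these data known. The genes named were all members, a set of genes chosen from each list by role, the called gene of each list with the smallest p in each direction at 10 µM against 0 µM, and the 5 genes nearest in course to Hspa5. Ero1l, Hspa8 and Dnaja1 were added after their values were seen. Alternatives were RLE size factors, TMM over nuclear genes, library totals alone, no filter, DESeq2 1.42.0, a filter of 10 counts in each library, adjusted p under 0.01 or 0.05 at any fold, only the groups compared, a replicate block, and each library left out. The procedure was also run on counts simulated from its own fit, a run that cannot test the assumptions of the fit.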

Additional observations from a re-analysis of the deposited data

Results flagged for a closer look

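The effects of the doses on Herpud1 differed by the test of the difference itself, which is the comparison of 10 µM with 2 µM. Its log2 fold change was 0.85 (SE 0.0759, adjusted p = 3.13e-05 in edgeR), with −0.05 at 2 µM and 0.80 at 10 µM, each against 0 µM.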

How the results depend on the processing

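The precision at 10 µM rests on 2 libraries, and where either was left out the other was taken to vary like the other groups. Members called at 10 µM against 0 µM numbered 1, and 2 with total counts only or with an adjusted p under 0.01 or 0.05 at any fold, and at 10 µM against 2 µM they numbered 1, and 2 with an adjusted p under 0.01 or 0.05 at any fold. Leaving out each library in turn left 0, 1 and 1 members called. With total counts only Hsp90b1 at 10 µM against 0 µM turned from −0.19 to 0.029 (adjusted p = 0.791), since the medians of all genes moved to 0.23 at 10 µM and 0.07 at 2 µM against 0 µM. Herpud1 was called throughout, at 0.75 to 1.02 against 0 µM and 0.78 to 0.98 against 2 µM. Of 540 values of members under the alternatives 534 kept their call and direction (direction was judged where the 95% interval leaves out 0), 5 gained a call and 1 reversed. Of 1296 values of other named genes 1242 kept theirs, 25 lost a call and 29 gained one. Ero1l at 2 µM lost its call in 5 fits without a library, at −0.63 to −0.77 (adjusted p 0.0137 to 0.0316). All tested genes called numbered 71 at 2 µM against 0 µM (109 with DESeq2, 107 with an adjusted p under 0.01 at any fold, 595 with an adjusted p under 0.05 at any fold, and from 6 without the second 2 µM library to 144 without the first 0 µM library), 442 at 10 µM against 0 µM (914 with total counts only, 747 at any fold, 1991 at 0.05, and from 235 without the second 10 µM library to 633 without the first 0 µM library) and 788 at 10 µM against 2 µM (1539 at an adjusted p under 0.01 at any fold, 3346 at 0.05, and from 444 without the second 10 µM library to 884 without the first 0 µM library). Between 0 and 2 µM, the deviations of libraries from their dose mean correlated at 0.0845 to 0.199 where the number was the same. Where the number differed they correlated at −0.154 to 0.0584. With 10 µM the correlations cannot tell, since the deviations of its 2 libraries mirror each other. Whether the numbers pair the libraries is therefore not settled. With the replicate block, members called numbered 0, 1 and 1, and no call of a member changed, while Bag3 at 10 µM against 0 µM (−0.56, adjusted p = 0.0137) and Dnaja1 at 10 µM against 2 µM (−0.73, adjusted p = 0.0135) lost their calls and Ero1l at 10 µM against 2 µM gained one (0.59, adjusted p = 0.00471).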
